A study of Mus musculus with 14 samples.

Results

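The genes described here are 46 mouse genes of ribosome biogenesis, chosen by name from a table of read counts for 53465 genes: 6 of RNA polymerase I transcription, 9 of the small nucleolar ribonucleoprotein particles (snoRNPs), 14 of the small subunit, 12 of the large subunit, 3 nucleolar proteins with several roles, and 2 enzymes of polyamine synthesis. All 46 were in the table and all 46 were among the 10791 genes tested, with at least 27 reads in every library. The RNA came from KL974, a single mouse line labelled acute myeloid leukemia (AML), kept in medium with IL3, IL6 and SCF, cytokines of early blood cells. The labels give it the genotype Trp53R172H;shMll3;shNf1 (a mutant p53 gene and short hairpin RNAs, shRNAs, against Mll3 and Nf1), which every group shares, controls included. A lentivirus added a further shRNA linked to blue fluorescent protein (BFP), both under doxycycline control, and flow cytometry separated BFP positive cells (hairpin on) from BFP negative cells (hairpin off).

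The 14 libraries form 7 groups of 2: doxycycline-treated BFP positive cells at day 4 with shOgdh346 or with shOgdh2081, which target Ogdh, and cells with the control hairpin shRen713 that were untreated at day 0, BFP positive or BFP negative at day 2, and BFP positive or BFP negative at day 4. All sorted groups had doxycycline. No label says that day 0 cells were sorted, so time, doxycycline and sorting cannot be told apart in comparisons with day 0. Whether replicates were separate cultures is in no label, and the spread that p-values rest on may therefore be technical. Ogdh encodes a subunit of the 2-oxoglutarate dehydrogenase complex of the tricarboxylic acid cycle.

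Ribosomes are assembled mainly in the nucleolus. RNA polymerase I transcribes the long ribosomal RNA (rRNA) precursor, box C/D and box H/ACA snoRNPs guide its methylation and pseudouridylation, and the small subunit processome and the large subunit assembly factors cut, fold and coat it with ribosomal proteins. Growing blood cells make ribosomes at a high rate, and many of these genes, with Odc1 and Srm of the polyamine pathway, are known as targets of the growth regulator MYC. The libraries were made from polyadenylated RNA and therefore report the messenger RNA (mRNA) of the assembly factors and not rRNA or ribosomes.

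Promoter windows of 300 bases (250 before and 50 after the annotated start) were at hand for 40 of the 46 genes, from RefSeq on GRCm38.p6. The motif searched was CACGTG, the canonical E-box to which MYC with MAX, among other factors, can bind. It reads the same on both strands, so each match was counted once, and no other motif was searched. CACGTG was in the window of 8 of the 40 genes (20%), beside 2187 of 27025 gene symbols (8.09%). Those symbols were not limited to genes expressed in these cells, so the 2 shares are of unlike sets. The 4 windows below were picked by the number of matches, with ties ordered by the size of the change with Ogdh knockdown. Utp20 and Wdr43 fell with knockdown, and Rrn3 and Pes1 did not pass the test. Windows are given with the motif in capitals, 5′ to 3′ along the gene's own strand.
Rrn3, chr16:13780449-13780748, plus strand: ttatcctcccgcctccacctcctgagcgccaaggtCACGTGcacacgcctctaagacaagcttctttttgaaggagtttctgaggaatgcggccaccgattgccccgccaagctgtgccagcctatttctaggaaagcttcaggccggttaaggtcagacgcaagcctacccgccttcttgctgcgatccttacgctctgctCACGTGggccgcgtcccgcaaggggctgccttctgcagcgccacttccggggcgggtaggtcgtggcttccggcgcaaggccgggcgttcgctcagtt
Utp20, chr10:88826765-88827064, minus strand: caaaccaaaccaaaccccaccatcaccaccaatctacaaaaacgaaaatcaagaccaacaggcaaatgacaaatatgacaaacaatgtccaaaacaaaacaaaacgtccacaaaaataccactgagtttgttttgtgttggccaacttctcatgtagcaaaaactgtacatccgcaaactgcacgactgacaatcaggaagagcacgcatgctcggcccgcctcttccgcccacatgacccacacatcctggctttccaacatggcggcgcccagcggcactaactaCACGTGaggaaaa
Wdr43, chr17:71615965-71616264, plus strand: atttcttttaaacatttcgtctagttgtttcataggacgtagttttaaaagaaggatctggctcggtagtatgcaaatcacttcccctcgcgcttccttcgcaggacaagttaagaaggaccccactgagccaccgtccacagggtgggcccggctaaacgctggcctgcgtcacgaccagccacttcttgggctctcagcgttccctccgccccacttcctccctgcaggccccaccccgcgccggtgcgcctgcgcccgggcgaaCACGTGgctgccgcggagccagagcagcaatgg
Pes1, chr11:3963725-3964024, plus strand: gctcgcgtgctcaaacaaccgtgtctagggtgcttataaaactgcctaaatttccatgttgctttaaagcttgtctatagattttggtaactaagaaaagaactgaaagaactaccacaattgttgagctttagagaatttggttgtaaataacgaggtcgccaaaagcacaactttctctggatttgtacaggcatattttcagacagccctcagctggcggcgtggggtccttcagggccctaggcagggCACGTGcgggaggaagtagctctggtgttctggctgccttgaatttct
Rrn3 held 2 matches, 215 and 48 bases before the start. The matches of Utp20, Wdr43 and Pes1 lay 37, 17 and 2 bases after it. Tsr1, Ltv1, Nop2 and Imp4 also held a match, and none of these passed the test of knockdown. Of the 21 called genes with a window 2 held the motif, and of the 19 not called 6 did. A match is a description of the sequence and not of binding.

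Library totals ran from 913482 to 10271698 counts, and the shallowest libraries were 1 of each Ogdh hairpin (shOgdh346 replicate 2 with 1159021 and shOgdh2081 replicate 1 with 913482 counts). Levels are given in CPM, counts scaled to a common library size,, and fold changes as log2 values with their standard errors. Calls are edgeR quasi-likelihood tests with a Benjamini-Hochberg adjusted p under 0.05 over all 10791 genes. Ogdh, the targeted gene, had 60.8 and 60.8 CPM in shOgdh346 cells and 51.5 and 52.4 CPM in shOgdh2081 cells, against 211 to 312 CPM in the 10 control libraries, as their labels say. The labelled cell type held in part. Kit (464 to 578 CPM) and Myb (536 to 897 CPM), genes of blood progenitors, were high in every library, while the myeloid genes Mpo, Cebpa and Flt3 and the stem cell gene Cd34 were at or near 0, and the erythroid genes Gata1 (295 to 353 CPM), Klf1 and Epor were high. Of 7 neutrophil and macrophage markers 5 had no read in any library, as had 4 of 5 lymphoid markers.

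Ribosome biogenesis mRNAs of all 6 roles were lower by a small amount in cells with Ogdh hairpins. With both hairpins together against control BFP positive cells at day 4, 25 of the 46 genes fell, 0 rose and 21 did not pass by edgeR (0 rose at an unadjusted p under 0.05 or by DESeq2), while 8.36% of all tested genes fell. The median log2 change was -0.22 for the 46 genes and 0 for all tested genes, and the single genes ranged from -0.51 (Srm) to 0.06 (Nob1). The fitted value was below 0 for 44 of the 46 genes and for 49.9% of all tested genes. The exceptions, Polr1c (0.04 ± 0.10) and Nob1 (0.06 ± 0.09), did not pass. By role, 2 of 6 RNA polymerase I genes fell, 7 of 9 snoRNP genes, 7 of 14 small subunit genes, 5 of 12 large subunit genes, 2 of 3 nucleolar proteins with several roles, and 2 of 2 polyamine enzymes. DESeq2 called 15 of the 46, and thinning every library to the depth of the shallowest left 14. Every share of all tested genes called is from the main edgeR fit, and the shares under other fits are not given. Leaving out 1 of the 6 libraries gave 11 to 22, with 11 without control BFP positive replicate 1, 15 without replicate 2 of that group and 14 without shOgdh2081 replicate 2.

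**Figure D1:**
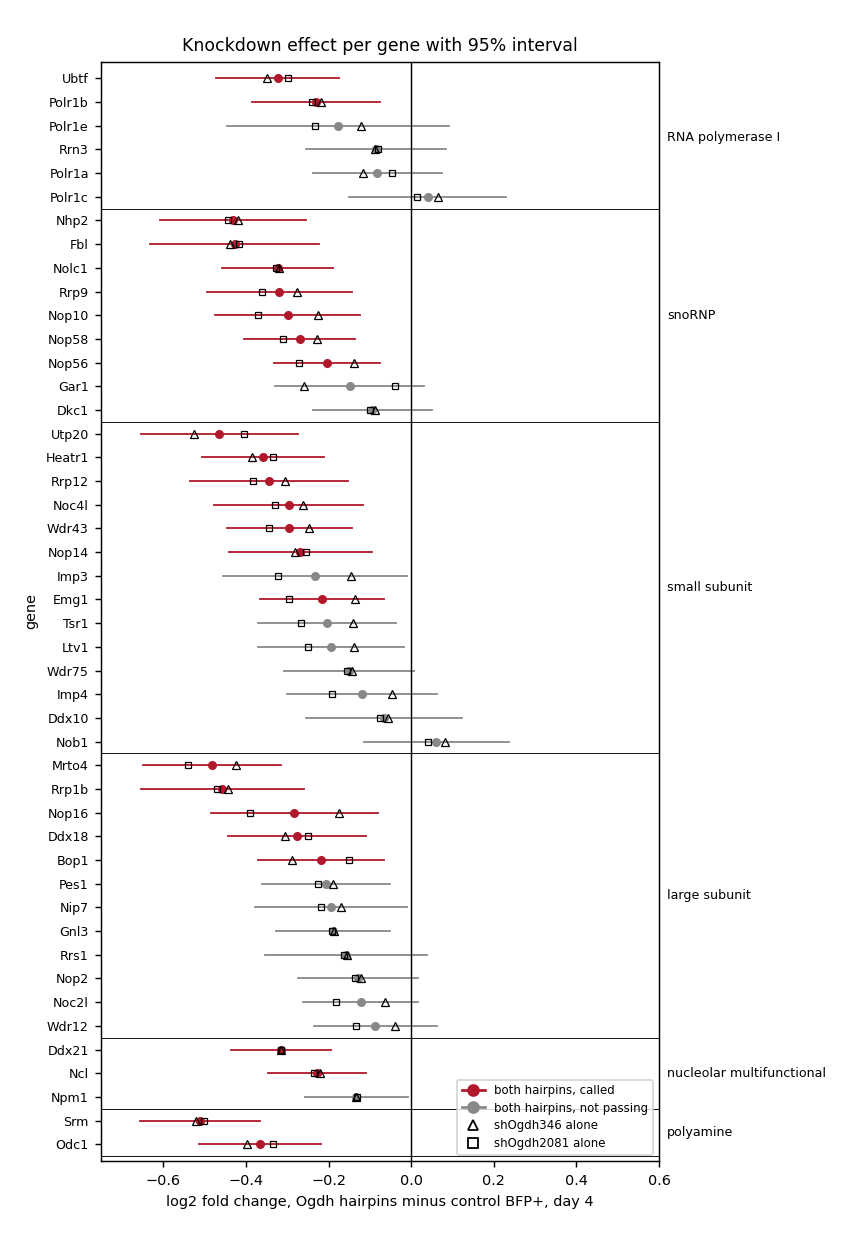
Log2 fold change (x axis) of each of the 46 genes (y axis, grouped by role) for Ogdh hairpins against control BFP positive cells at day 4. Circles with bars are the mean of both hairpins with its 95% interval (red, called; grey, not passing), triangles and squares the single hairpins; 44 circles lie left of 0 and 25 are called.

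The summed level of the 46 genes was 12754.5 and 12876.2 CPM in shOgdh346 cells and 12581.1 and 12579 CPM in shOgdh2081 cells, against 14925.9 and 14755.9 CPM in control BFP positive cells at day 4. All 4 Ogdh libraries were thus below every control library, of which the lowest was day 4 BFP negative replicate 1 with 14150.4 CPM. Set against the mean of control BFP positive cells at day 4, the median gene stood at -0.23 and -0.19 (log2) in the shOgdh346 libraries and at -0.26 and -0.25 in the shOgdh2081 libraries. The other controls ranged from -0.04 to 0.13, with day 0 highest at 0.13 and 0.12. In bulk RNA, fewer cells of a type and less RNA per cell cannot be told apart. Markers of some blood cell types differed in summed level between the Ogdh and control libraries. The summed level of 5 mast cell and basophil markers was 426 to 474 CPM in Ogdh libraries and 264 to 284 CPM in control BFP positive libraries at day 4, with 2 of the 5 above 10 CPM on average and Mcpt8 at 0 in all 6. For 8 progenitor and AML markers it was 1411 to 1448 CPM against 1188 to 1195 CPM, with Cebpa at 0. Of these 8 markers, 3 were above 10 CPM on average, and Myb and Kit made up most of the sum. Mean Myb was 896 CPM with shOgdh346 and 875 CPM with shOgdh2081, against 688 CPM in control BFP positive cells at day 4. For Kit the means were 510 and 548 CPM against 491 CPM. Over all 10 control libraries the mast cell and progenitor sums were 159 to 284 CPM and 1040 to 1252 CPM, below every Ogdh library. For 7 erythroid and megakaryocyte markers the sum was 822 to 928 CPM in Ogdh libraries and 746 to 886 CPM over all 10 control libraries (785 to 813 CPM in BFP positive cells at day 4), so the ranges overlapped. Among them Car1 and Hbb-bt had higher means with both hairpins than in control BFP positive cells at day 4, and Gata1, Epor and Itga2b lower ones. Their part in the result was not tested.

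**Figure D2:**
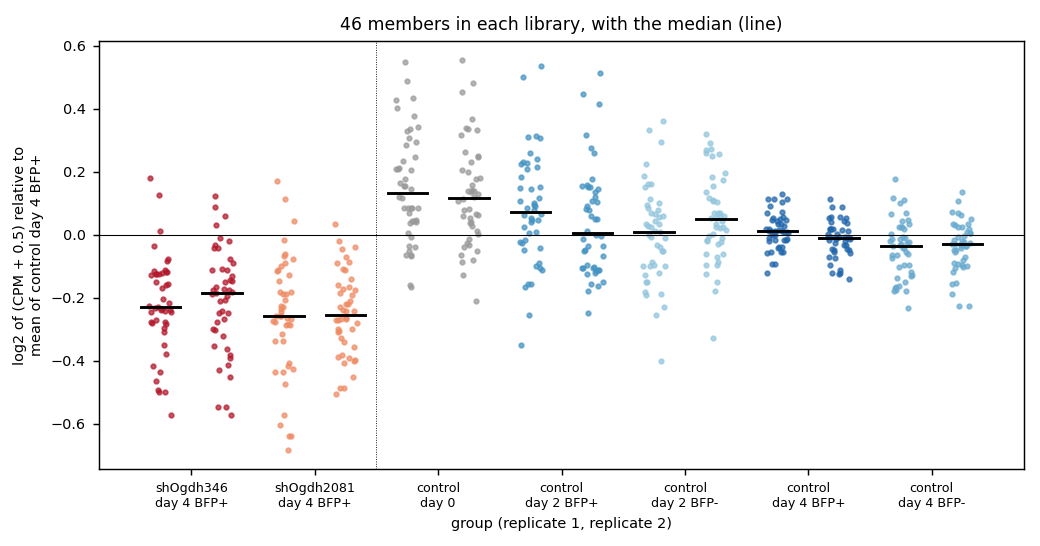
Each point is 1 of the 46 genes in 1 library, as log2 of CPM plus 0.5 relative to the mean of control BFP positive cells at day 4 (y axis), with libraries along the x axis by group and lines at the medians. The medians of the 4 Ogdh libraries lie between -0.26 and -0.19 and those of the control libraries between -0.04 and 0.13.

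Transcription of rRNA genes was represented by 6 genes, of which Ubtf and Polr1b fell. Ubtf (chr11:102304560-102319742, minus strand) encodes the factor that coats active rRNA genes and recruits RNA polymerase I. It had 275 and 219 CPM in shOgdh346 cells and 268 and 263 CPM in shOgdh2081 cells, against 314 and 339 CPM in control BFP positive cells at day 4. Its 8 other control libraries had 315 to 342 CPM, so no Ogdh library reached any control library. Ubtf fell by 20.1% (-0.32 ± 0.07, adjusted p = 0.00128 by edgeR), and without control BFP positive replicate 2 it was not called (-0.27, adjusted p = 0.0667). In the 4 sorted control groups its changes from day 0 were -0.03 to 0.00, none of them called. Polr1b, a core subunit of the polymerase, had 158 and 164 CPM in shOgdh346 cells and 152 and 159 CPM in shOgdh2081 cells, against 189 and 182 CPM in control BFP positive cells. It fell by 14.7% (-0.23 ± 0.08, adjusted p = 0.0325 by edgeR), a call that 5 of the 6 single-library omissions removed (-0.25 to -0.19, adjusted p = 0.0642 to 0.338), all but that of shOgdh346 replicate 2. The largest subunit gene Polr1a (-0.08 ± 0.08), Polr1e (-0.18 ± 0.13), Polr1c, which is shared with RNA polymerase III, and Rrn3 (-0.08 ± 0.09), whose product brings the polymerase to its promoters, did not pass.

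The snoRNP genes had the largest share of calls among the roles with more than 3 genes. Nhp2 (chr11:51619735-51623714, plus strand), a core protein of the box H/ACA particles, had 103 and 108 CPM in shOgdh346 cells and 93.2 and 105 CPM in shOgdh2081 cells, against 140.3 and 138 CPM in control BFP positive cells at day 4. Its Ogdh libraries lay below all 10 control libraries, and it fell by 25.9% (-0.43 ± 0.09, adjusted p = 0.00025 by edgeR). Nolc1, a nucleolar phosphoprotein that binds snoRNPs, had 365 and 341 CPM in shOgdh346 cells and 328 and 368 CPM in shOgdh2081 cells, against 443 and 444 CPM in control BFP positive cells. It too was below all 10 control libraries (-0.32 ± 0.07, adjusted p = 0.000334 by edgeR). Fbl, the methyltransferase of the box C/D particles, had 80.5 and 73.6 CPM in shOgdh346 cells and 89.9 and 76.8 CPM in shOgdh2081 cells, against 99.0 and 117 CPM in control BFP positive cells. The groups did not overlap (-0.43 ± 0.10, adjusted p = 0.00183 by edgeR), but the call was lost without shOgdh2081 replicate 2 (-0.34) or control BFP positive replicate 2 (-0.32; adjusted p = 0.0658 and 0.112). Fbl is uncertain in another way as well, since 3 genes (Gm6211, Gm5812 and Tulp4) share at least 90% of bases with at least 30% of its coding sequence. Together these 3 genes had 44.3% as many counts, taken over each whole gene and not over the shared stretch alone. Nop56, the box C/D partner of Fbl, had the highest level of the snoRNP genes per annotated exon length in control BFP positive cells at day 4. That order depends on the annotated length, 4099 bases for Nop56 and 10758 bases for Nop58. Their mean CPM in that group were 611 and 592. Nop56 had 560.1 and 550.3 CPM with shOgdh346, 506 and 508 CPM with shOgdh2081, and 619 and 603 CPM in control BFP positive cells. Nop56 fell (-0.20 ± 0.06, adjusted p = 0.0217 by edgeR), with its call lost in 4 of 6 omissions (both control BFP positive libraries, shOgdh346 replicate 1 and shOgdh2081 replicate 2; -0.22 to -0.17). Rrp9 (-0.32), Nop10 (-0.30) and Nop58 (-0.27) also fell. Nop58 lost its call without control BFP positive replicate 1 (-0.25), Rrp9 without either library of that group (-0.35 and -0.28), and Nop10 without 3 libraries (shOgdh346 replicate 1, shOgdh2081 replicate 2 and control BFP positive replicate 1; -0.28 to -0.15). Gar1 (-0.15 ± 0.09) and the pseudouridine synthase Dkc1 (-0.09 ± 0.07) did not pass.

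Among the small subunit factors 7 of 14 fell. Utp20 (chr10:88746607-88826804, minus strand), a processome scaffold and the gene of the second window shown, had 75.8 and 84.7 CPM in shOgdh346 cells and 72.4 and 89.0 CPM in shOgdh2081 cells, against 108 and 118 CPM in control BFP positive cells at day 4. It fell by 27.5% (-0.46 ± 0.10, adjusted p = 0.000278 by edgeR). Heatr1, another processome scaffold that also serves RNA polymerase I transcription, had 224 and 260.2 CPM in shOgdh346 cells and 264 and 235 CPM in shOgdh2081 cells, against 301 and 318 CPM in control BFP positive cells (-0.36 ± 0.07, adjusted p = 0.000282 by edgeR). For both genes every Ogdh library was below all 10 control libraries. Rrp12, which helps export small subunit precursors, had 82.1 and 83.9 CPM in shOgdh346 cells and 84.4 and 76.4 CPM in shOgdh2081 cells, against 109 and 92.8 CPM in control BFP positive cells. The groups did not overlap (-0.34 ± 0.10, adjusted p = 0.00833 by edgeR), yet the call was lost without shOgdh346 replicate 1, shOgdh2081 replicate 2 or control BFP positive replicate 1 (-0.33, -0.29 and -0.20). Wdr43 (-0.30), Noc4l (-0.30), Nop14 (-0.27) and the rRNA methyltransferase Emg1 (-0.22) fell as well. Of the 6 single-library omissions, 2 ended the call of Wdr43 and 2 that of Noc4l (control BFP positive replicate 1 for both, with shOgdh2081 replicate 2 for Wdr43, -0.24 to -0.23, and shOgdh346 replicate 1 for Noc4l, -0.26 to -0.16), 4 that of Nop14 (-0.32 to -0.22; all but shOgdh346 replicate 1 and shOgdh2081 replicate 1) and all 6 that of Emg1 (-0.25 to -0.16). Imp3 had the highest level of the small subunit genes per annotated exon length in control BFP positive cells at day 4. It had 66.2 and 85.6 CPM with shOgdh346, 51.5 and 66.3 CPM with shOgdh2081, and 79.2 and 77.9 CPM in control BFP positive cells. Those groups overlap (-0.23 ± 0.11, adjusted p = 0.149 by edgeR). Tsr1, Ltv1, Wdr75, Imp4, Ddx10 and Nob1, the nuclease of the last cleavage of the small subunit rRNA, ranged from -0.20 to 0.06 and did not pass.

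Large subunit factors split, with 5 of 12 falling. Mrto4 (chr4:139347435-139352576, minus strand), which holds the place of the ribosomal stalk proteins during assembly, had 122 and 145 CPM in shOgdh346 cells and 111 and 122 CPM in shOgdh2081 cells, against 174 and 172 CPM in control BFP positive cells at day 4. It fell by 28.4% (-0.48 ± 0.08, adjusted p = 1.83e-05 by edgeR). Rrp1b, a nucleolar factor of large subunit processing, had 73.4 and 83.9 CPM in shOgdh346 cells and 77.9 and 73.6 CPM in shOgdh2081 cells, against 103 and 104 CPM in control BFP positive cells (-0.46 ± 0.10, adjusted p = 0.00055 by edgeR). In both genes the Ogdh libraries were below all 10 control libraries. Nop16 had 81.1 and 104 CPM in shOgdh346 cells and 86.6 and 71.7 CPM in shOgdh2081 cells, against 101 and 96.1 CPM in control BFP positive cells. These groups overlap, and the call (-0.28 ± 0.10, adjusted p = 0.0462 by edgeR) was lost without shOgdh346 replicate 1, shOgdh2081 replicate 2 or either control BFP positive library (-0.31 to -0.15). The RNA helicase gene Ddx18 (-0.28) lost its call in 3 of 6 omissions (shOgdh346 replicate 1, shOgdh2081 replicate 2 and control BFP positive replicate 1; -0.29 to -0.16), and Bop1 (-0.22) in 5, all but shOgdh346 replicate 1 (-0.23 to -0.19). Bop1 acts in a complex with Pes1 (-0.21 ± 0.08) and Wdr12 (-0.09 ± 0.07), which did not pass. Noc2l had the highest level of the large subunit genes per annotated exon length in control BFP positive cells at day 4. It had 389 and 369.7 CPM with shOgdh346, 332 and 362 CPM with shOgdh2081, and 384 and 415 CPM in control BFP positive cells. The groups overlap for Noc2l (-0.12 ± 0.07, adjusted p = 0.24 by edgeR). Its exons overlap those of Samd11 on the other strand. Gnl3, which encodes nucleostemin, Nip7, Rrs1 and the rRNA methyltransferase gene Nop2 ranged from -0.19 to -0.13 and did not pass.

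Npm1, Ncl and Ddx21, which encode nucleolar proteins, had with Srm the highest levels of the 46 genes per annotated exon length. Npm1, a histone and ribosome chaperone, had 703 to 941 CPM per kilobase of annotated exons across the 7 group means, Ncl 226 to 283, and Ddx21 159 to 227. The RNA helicase gene Ddx21 (chr10:62580251-62602281, minus strand) had 829 and 821 CPM in shOgdh346 cells and 811 and 834 CPM in shOgdh2081 cells, against 1015 and 1038 CPM in control BFP positive cells at day 4. It fell by 19.6% (-0.32 ± 0.06, adjusted p = 0.000109 by edgeR), with all 4 Ogdh libraries below all 10 control libraries. Ncl, which encodes nucleolin, had 2294 and 2372 CPM in shOgdh346 cells and 2316 and 2296 CPM in shOgdh2081 cells, against 2729 and 2702 CPM in control BFP positive cells. It fell by 14.6% (-0.23 ± 0.06, adjusted p = 0.00471 by edgeR) and lost its call without either control BFP positive library (-0.21 and -0.23, adjusted p = 0.136 and 0.0588). Npm1, a gene often mutated in human AML, had 1845 and 1903 CPM in shOgdh346 cells and 1918 and 1841 CPM in shOgdh2081 cells, against 2071 and 2040.5 CPM in control BFP positive cells. Those groups did not overlap, but Npm1 did not pass (-0.13 ± 0.06, adjusted p = 0.138 by edgeR).

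Both polyamine enzymes fell. Srm (chr4:148591503-148594993, plus strand), spermidine synthase, had the largest change of the 46 genes. It had 304 and 294 CPM in shOgdh346 cells and 268 and 324 CPM in shOgdh2081 cells, against 452 and 408 CPM in control BFP positive cells at day 4 and 404 to 524 CPM over all 10 control libraries. Srm fell by 29.8% (-0.51 ± 0.07, adjusted p = 3.3e-07 by edgeR). Odc1, ornithine decarboxylase, the rate-limiting enzyme of the pathway, had 187 and 181 CPM in shOgdh346 cells and 201 and 189.9 CPM in shOgdh2081 cells, against 245 and 242 CPM in control BFP positive cells (-0.37 ± 0.07, adjusted p = 0.000214 by edgeR). No Ogdh library reached any of the 10 control libraries for either enzyme. For Odc1, 12 near copies in the annotation together had 2.77% as many counts. Srm, Odc1, Ddx21, Mrto4, Rrp1b, Nhp2, Nolc1, Utp20 and Heatr1 are the 9 genes whose call held in all 18 alternative fits, each left-out library included. The same count was not made for the other tested genes.

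**Figure D3:**
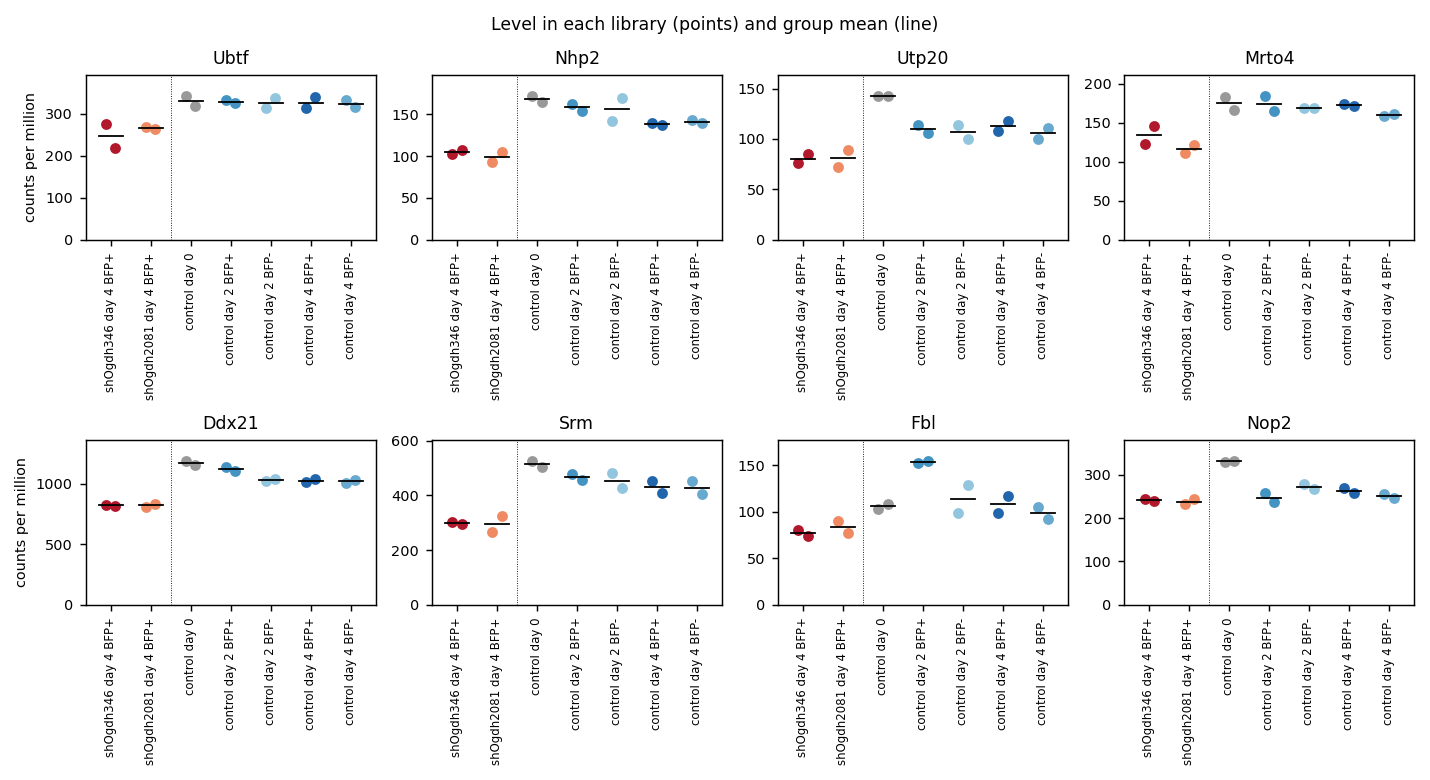
CPM (y axis, from 0) of 8 of the 46 genes in each library (points) with group means (lines), Ogdh hairpins at the left of the dotted line and the 5 control groups at the right. Ubtf, Nhp2, Utp20, Mrto4, Ddx21, Srm and Fbl are lowest in Ogdh libraries; Fbl peaks in BFP positive cells at day 2, and Nop2 is highest at day 0.

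The hairpins were compared with each other to see whether the change was shared. Against control BFP positive cells at day 4, 15 genes fell with shOgdh346 (5.6% of all tested genes fell) and 21 with shOgdh2081 (5.53%), and 0 rose with either, by edgeR at an unadjusted p under 0.05 or by DESeq2. The 2 comparisons share their control libraries. The genes called with both were Ddx21, Fbl, Heatr1, Mrto4, Ncl, Nhp2, Nolc1, Nop58, Odc1, Rrp1b, Srm, Ubtf and Utp20, 13 of the 15 and of the 21. How many of all tested genes were called with both was not counted, so this overlap has no background to be set against. Bop1 and Ddx18 were called with shOgdh346 alone and 8 genes with shOgdh2081 alone. In the direct test of shOgdh2081 against shOgdh346, 0 of the 46 genes were called (0.0834% of all tested genes were, in either direction; 1 of the 46 had an unadjusted p under 0.05 by edgeR, and DESeq2 called 0). The largest difference was that of Gar1 (0.22 ± 0.11), and all 46 intervals of the difference lay between -0.46 and 0.43. Thinning to equal depth left 6 calls for shOgdh346 and 8 for shOgdh2081, and leaving out single libraries left 5 to 11 for shOgdh346 (5 without its replicate 1, 7 without control BFP positive replicate 1) and 4 to 13 for shOgdh2081 (4 without control BFP positive replicate 1, 6 without its own replicate 2, 13 without its replicate 1 or control BFP positive replicate 2).

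Control cells that had doxycycline but had not switched on their hairpin gave another control. Against BFP negative cells at day 4, 22 genes fell and 0 rose with both hairpins (0 also by DESeq2 or at an unadjusted p under 0.05 by edgeR; 10.3% of all tested genes fell), with a median log2 change of -0.18 for the 46 genes and 0 for all tested genes. Of these, 20 were also among the 25 called against BFP positive cells, and both comparisons use the same Ogdh libraries. This overlap was not counted over all tested genes and has no background to be set against. Gar1 (-0.23) and Ltv1 (-0.25) were called against BFP negative cells alone, and Ncl, Noc4l, Ddx18, Rrp9 and Wdr43 against BFP positive cells alone. Values from both controls stood close for Srm (-0.49 against BFP negative and -0.51 against BFP positive cells) and Nhp2 (-0.45 and -0.43), and less so for Odc1 (-0.19 and -0.37). DESeq2 called 11 here and the thinned libraries 6. The number was 12 without BFP negative replicate 2, 11 without shOgdh2081 replicate 2 and 14 without shOgdh346 replicate 1.

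Few of the 46 genes were called between control cells with the hairpin on and off. Between BFP positive and BFP negative control cells at day 4, 0 of the 46 genes were called (0.0741% of all tested genes were, in either direction), 1 had an unadjusted p under 0.05 by edgeR, and DESeq2 called 0. At day 2, Fbl alone of the 46 was called, as higher, while 3% of all tested genes were higher and 3.22% lower. Of the 46, 6 had an unadjusted p under 0.05 by edgeR. Fbl had 153 and 154 CPM in BFP positive and 98.9 and 128.7 CPM in BFP negative cells (0.40 ± 0.11, adjusted p = 0.0116 by edgeR). The call was lost without BFP positive replicate 1 or BFP negative replicate 1, with DESeq2 and with thinned libraries. The difference between the days in this contrast was called for 0 of the 46 genes and for 71 of all 10791 tested genes. Of the 46, 1 gene, Nop10 (0.30 ± 0.13), had an unadjusted p under 0.05 by edgeR.

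Some of the 46 mRNAs were also lower in sorted, doxycycline-treated control cells, which carry no Ogdh hairpin, than at day 0. At day 2, 7 genes were lower and 1 higher in BFP negative cells than at day 0 (4.98% and 5.33% of all tested genes were), and 10 lower and 3 higher in BFP positive cells (8.77% and 9.1%). At day 4, 12 were lower in BFP negative cells (4.19%) and 10 in BFP positive cells (3.65%), and 0 were higher in either (at an unadjusted p under 0.05 by edgeR, 0 in BFP negative and 1 in BFP positive cells; 0 by DESeq2). The 4 comparisons share the day 0 libraries. At day 4 Rrp12 showed the largest fall in BFP negative cells, with 96.8 and 94.0 CPM at day 4 against 141.9 and 141.4 CPM at day 0 (-0.58 ± 0.09, adjusted p = 9.59e-06 by edgeR). In BFP positive cells at day 4 Bop1 showed the largest fall, with 216 and 211 CPM at day 4 against 312 and 313 CPM at day 0 (-0.55 ± 0.08, adjusted p = 2.51e-06 by edgeR). The genes higher in BFP positive cells at day 2 than at day 0 were Fbl (0.54 ± 0.11), Nop10 (0.42 ± 0.10) and Npm1 (0.34 ± 0.07), and in BFP negative cells Npm1 (0.22 ± 0.07). DESeq2 called 3 genes higher in BFP positive cells at day 2 and 0 in BFP negative cells. Npm1 had 1964 and 2009 CPM at day 0, 2555 and 2460.1 CPM in BFP positive cells at day 2 and 2071 and 2040.5 CPM in BFP positive cells at day 4, and the day 4 value did not pass (0.05 ± 0.07). Without 1 library the day 2 counts of calls became 3 to 10 in BFP negative cells (3 without day 0 replicate 1, 4 without day 0 replicate 2 or BFP negative replicate 2) and 6 to 8 in BFP positive cells, whichever library was left out. The day 4 counts became 8 to 13 in BFP negative cells and 3 to 5 in BFP positive cells, again whichever library was left out.

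**Figure D4:**
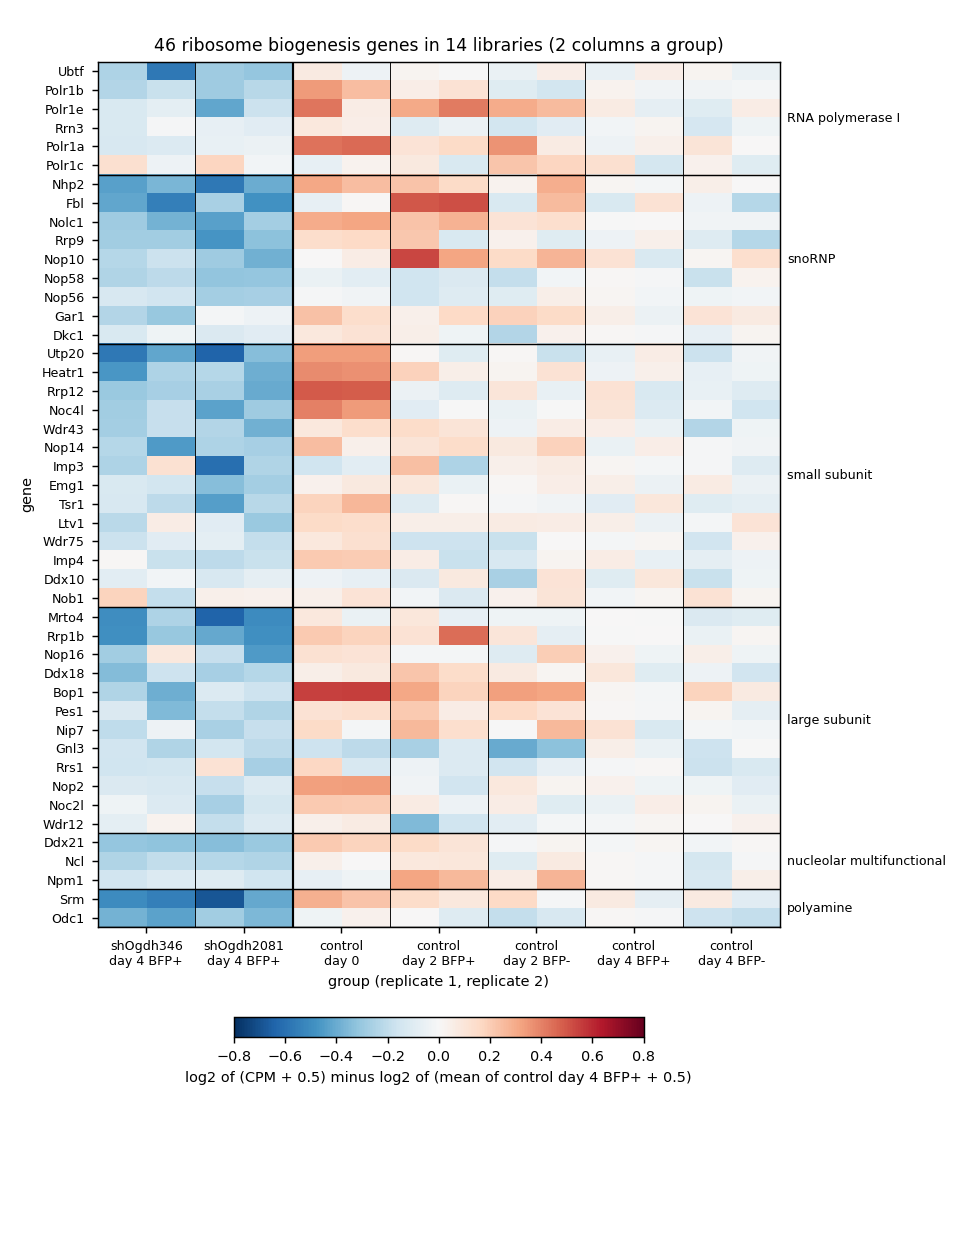
Colour shows log2 of CPM plus 0.5 relative to the mean of control BFP positive cells at day 4, for the 46 genes (rows, by role) in the 14 libraries (columns, 2 a group). Blue fills most of the 4 Ogdh columns, and red marks day 0 columns for genes such as Bop1, Rrp12, Utp20 and Polr1a.

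Calls with knockdown and with time can be set side by side. Bop1, Heatr1, Noc4l, Nolc1, Polr1b, Rrp12, Srm and Utp20 were called lower with knockdown and also lower at day 4 than at day 0 in both control populations. The 16 genes called with knockdown but in neither day 4 control population were Ddx18, Ddx21, Emg1, Fbl, Mrto4, Ncl, Nhp2, Nop10, Nop14, Nop16, Nop56, Nop58, Odc1, Rrp1b, Ubtf and Wdr43. Nop2 and Polr1a were called in both day 4 control populations and not with knockdown, with Nop2 at -0.13 ± 0.07 with knockdown and at -0.33 ± 0.08 in BFP positive and -0.40 ± 0.08 in BFP negative cells at day 4 against day 0. Day 4 BFP positive libraries stand on both sides of this sorting of genes, as control of the knockdown and as the later time, and the difference between the effects was not tested. How many of all tested genes fall into each of these sets was not counted, so their sizes have no background to be set against. Both Ogdh group means were the 2 lowest of the 7 in 36 of the 46 genes (78.3%), as in 19.7% of all tested genes. The day 0 mean was the highest of the 7 in 30 genes (65.2%), against 17.6% of all tested genes. In 24 genes (52.2%), and in 6.48% of all tested genes, both held.

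**Figure D5:**
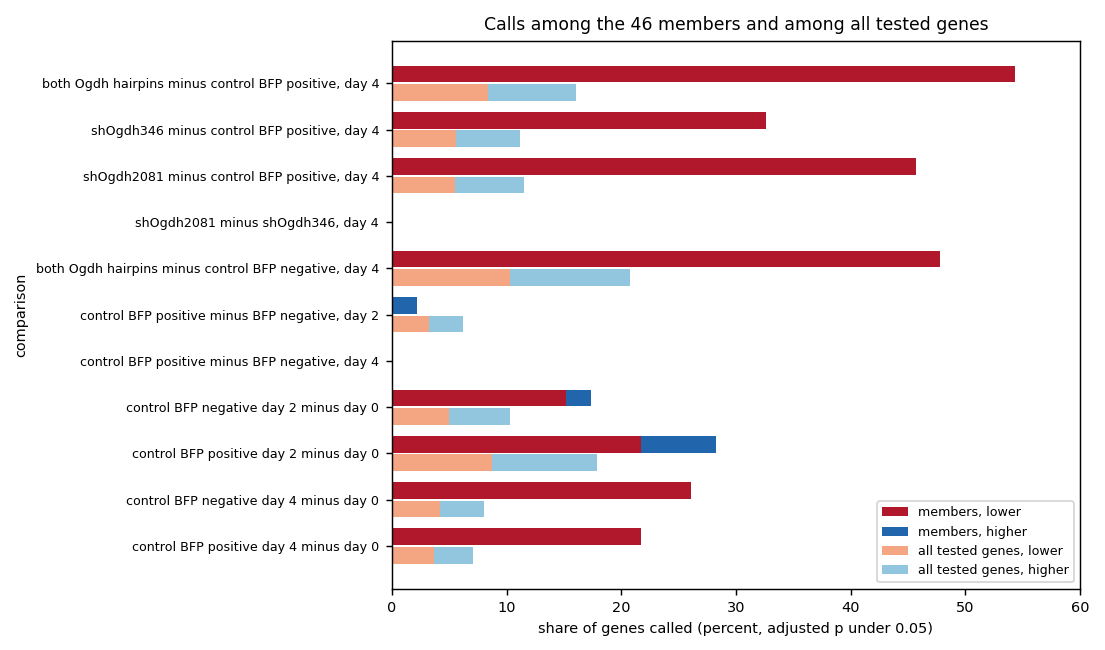
Share of genes called lower or higher (x axis, percent) in each of the 11 comparisons (y axis), among the 46 genes (dark bars) and among all 10791 tested genes (light bars). In the knockdown comparisons 32.6% to 54.3% of the 46 genes are called, all lower.

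Other genes of the pathway, taken from a list by role, were read from the same fit. With both hairpins against control BFP positive cells at day 4, 27 fell, 1 rose and 98 did not pass, and Riok2 and Exosc6 were listed but not tested, with a median log2 change of -0.15; 8.36% of all tested genes fell. The genes that fell numbered 12 of 45 large subunit genes, 8 of 39 small subunit genes, 3 of 10 snoRNP genes, 2 of 11 polyamine genes, 1 of 12 RNA exosome genes and 1 of 9 RNA polymerase I genes. DESeq2 called 5 large subunit, 2 small subunit, 2 snoRNP and 2 polyamine genes, each lower, and 0 genes of the RNA exosome and of RNA polymerase I. With 1 hairpin alone, 0 RNA exosome and 0 RNA polymerase I genes passed by edgeR or DESeq2 (at an unadjusted p under 0.05 by edgeR, 2 exosome genes and 1 polymerase gene with shOgdh346, and 3 and 1 with shOgdh2081). The largest falls per role were those of Sms (-0.50 ± 0.11), spermine synthase, which acts on the product of Srm, Nat10 (-0.41 ± 0.08), the acetyltransferase of small subunit rRNA, Rsl24d1 (-0.36 ± 0.11), a large subunit assembly factor, Snu13 (-0.35 ± 0.11), a box C/D snoRNP core protein, Polr1d (-0.29 ± 0.09), a subunit that RNA polymerases I and III share, and Exosc7 (-0.28 ± 0.10), an exosome subunit. Riok1 (0.31 ± 0.11), a kinase of late small subunit maturation, was the gene that rose. These calls were not recomputed without single libraries.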

How the data were processed

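The authors deposited raw read counts per gene (whole numbers, 1 column per library), with a gene length in another unit, bases. That length served levels per length and a length correction. Its source is unstated, but for 40 of the 46 genes it equalled the joined length of all exons annotated in GENCODE M21. It can therefore exceed the length of the mRNA, and the order of genes by level per length depends on the annotation. Per the labels' protocols, polyA RNA was sequenced as single-end reads; these name HTSeq, an RPKM matrix and a human build, while the submitters' processing notes name STAR 2.6.1a, featureCounts 1.6.3, Trimmomatic 0.36, FastQC 0.11.5 and mouse builds (mm10, GRCm38). Of 53274 genes also in GENCODE M21 on GRCm38, 51335 (96.36%) had the same coordinates, so GRCm38 positions are used. Neither strandedness nor the treatment of multiply mapped reads is given in the sources used here; 17 of the 46 genes overlap an exon on the other strand (among those called: Bop1, Emg1, Heatr1, Nhp2, Nop14, Nop56, Rrp1b, Rrp9 and Wdr43) and 12 have near copies, so their reads are uncertain.

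Genes were filtered with filterByExpr, normalized by TMM (factors 0.968 to 1.013) and tested in edgeR 4.0.16 (R 4.3.3) with the quasi-likelihood test, in 1 model of 14 libraries with group as its term, two-sided, after a test on simulated data. The spread came from 7 residual and 57.6 prior degrees of freedom (common coefficient of variation 5.04%). Replicates differed beyond sampling noise (chi-square per degree of freedom 1.16 to 2.71). An exact test of 2 against 2 libraries, as in comparisons of single groups, cannot go below p = 0.333, so none was used there. None was used for both hairpins together either, a comparison with more libraries to which this bound does not apply. CPM were computed on tested genes with TMM factors; marker CPM used library totals. Values per library are given for the called genes with the largest changes (at most 3 per role) and for both polyamine enzymes. They are also given for the gene with the highest level per length in each role in control BFP positive cells at day 4. Other pathway genes are named by the largest called change per role. The 46 genes and all lists were chosen with earlier results of these data known. DESeq2 1.42.0 and the other alternatives are listed below.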

Additional observations from a re-analysis of the deposited data

How the results depend on the processing

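The median log2 change of the 46 genes with both hairpins against control BFP positive cells at day 4 (-0.22) stayed between -0.24 and -0.20 under other scalings (RLE, upper quartile, totals), filters, DESeq2, thinning to equal depth, the length offset, a fit of the compared groups alone and both replicate blocks, and between -0.242 and -0.181 when single libraries were left out. No gene's called change reversed. The count of calls (25) was 21 to 28 under these settings except DESeq2 (15) and thinning (14), and 26 with the replicate block. With single libraries left out, it was 11 to 22. The other counts of calls, in the order of the report, ranged with single libraries left out over 5 to 11 (shOgdh346), 4 to 13 (shOgdh2081), 11 to 19 (against BFP negative cells), 0 to 1 (BFP at day 2), 3 to 10 and 6 to 8 (BFP negative and BFP positive cells at day 2 against day 0), and 8 to 13 and 3 to 5 (the same at day 4). DESeq2 moved 3 more of them by over 1.5 times (shOgdh2081 12, against BFP negative cells 11, BFP at day 2 0). Thinned libraries gave 6 and 8 for the single hairpins, 6 against BFP negative cells, 0 for BFP at day 2, and 1, 6, 5 and 3 for the comparisons with day 0; fewer reads were tested there by construction. Without the shallower library of each hairpin shOgdh2081 had 13 calls. Leaving out 1 library of a group of 2 assumes that the other varies like the other groups. The difference between replicates 1 and 2 was correlated between groups over all tested genes, with values from -0.082 to 0.148. The highest was between BFP negative control cells at day 2 and at day 4. Sampling noise lowers such values, so they cannot show whether same-numbered replicates share a batch or culture. The replicate block moved no count of calls by over 1.5 times (19 for shOgdh346, 22 for shOgdh2081, 23 against BFP negative cells), and a block on the library numbers gave 23. Depth limits the Ogdh groups most (1159021 and 913482 counts in the shallower library of each). The test of days within the BFP contrast was added after the data were seen.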
